A study of Mus musculus with 36 samples.

Results

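The 9 genes described here are the messenger RNAs of 3 Foxo transcription factors (Foxo1, Foxo3 and Foxo4), of the PI3K subunits Pik3r1 and Pik3cd, of the PI3K inhibitor Pik3ip1, of the phosphatase SHIP1 (Inpp5d) and of the kinases Akt1 and Akt2. They were chosen by symbol, with earlier results of these data known. All 9 listed symbols were present among the 12762 genes of the expression table. Expression was read in 36 libraries of the mouse pre-B cell line B3, a cultured line held at a dividing stage of early B cell development. Ikaros cells carried an MSCV retroviral vector coding for HA-tagged Ikaros fused to the estrogen receptor domain ERt2, followed by IRES-GFP, so that 4-hydroxy-tamoxifen (4-OHT) moves the fusion protein into the nucleus. Control cells carried the same kind of vector with ERt2 and IRES-GFP and no Ikaros. Both lines were sampled 6 times, namely at 0, 2, 6, 12, 18 and 24 h, and every one of the 12 groups holds 3 libraries. The vector is expressed from a retroviral promoter in pools of cells sorted for GFP, so each line is 1 transduced pool of 1 cell line, and its endogenous Ikaros gene is retained.

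The labels assign 0.5 uM 4-OHT to all libraries including those of 0 h, while the study's methods describe the 0 h cultures as free of drug and as obtained on separate occasions. A comparison with 0 h is therefore also a comparison between collections. The culture batches were numbered 1, 2 and 4 at 0 h and 1, 3 and 4 at all later times. Values are log2 expression after correction for GC content and gene length by cqn and for library preparation by ComBat. The lowest value of the table is 1, and a constant appears to have been added to all values, so a level is read as relative. The table does not state the base of its logarithm, and differences are read as log2 because cqn gives log2 values. Sequencing depth was unknown from these values. Replicates were separate cultures of the same pools, and p-values measure the spread between these cultures.

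PI3K phosphorylates a membrane lipid to PIP3, which recruits the kinase Akt to the membrane. Active Akt phosphorylates the Foxo factors, which then leave the nucleus, and low PI3K activity lets Foxo factors switch on their targets. SHIP1 removes a phosphate from PIP3, and Pik3ip1 is a membrane protein that restrains PI3K. In developing B cells, Foxo1 is known for driving Rag1, Rag2, Il7r and Blnk, and the pre-B cell receptor is known for signalling through PI3K. All of these steps act on proteins and lipids, whereas the values below are messenger RNA levels.

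The Ikaros gene Ikzf1 served as a check of the labels, and its row counts the endogenous and the vector transcripts together. Ikzf1 was higher in Ikaros cells at all 6 times, by 5.19 to 6.26 on the log2 scale, and the replicates of both lines were apart each time. All 8 B lineage markers examined were in the table, and the mean level of 7 of them lay between the 94.3rd and 99.5th percentile of all genes, whereas Blnk lay at the 58.4th percentile. Of markers of other cells, 1 of 7 T cell, 2 of 8 myeloid, 3 of 5 erythroid and 0 of 6 stromal genes were in the table. Among the defining markers, Cd3e, Csf1r and Col1a1 had no row. The T cell gene present, Lck, ranged from 10.82 to 11.22 in control cells and from 10.26 to 11.75 in Ikaros cells. Its mean level lay at the 39.5th percentile of all genes. The myeloid genes present, Lyz2 and Itgam, ranged from 3.91 to 9.86 and from 3.66 to 9.99 in Ikaros cells. In control cells they ranged from 5.57 to 8.64 and from 3.72 to 6.76. Their mean levels lay at percentiles 7.60 and 5.81 of all genes. Those of the erythroid genes present, Hbb-b1, Klf1 and Epor, lay at percentiles 3.00, 14.6 and 5.23. The part of these myeloid and erythroid genes in the results was not tested.

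Upstream sequence was taken from the RefSeq promoter windows on GRCm38.p6, which cover 250 bases before and 50 after a transcript start. There were 15 such windows for 8 of the 9 genes, and Foxo4 had no entry. The windows were searched on both strands for TGGGAA, the core bound by Ikaros, and for GTAAACA, a core bound by Foxo factors. The 2 letter strings do not overlap each other. TGGGAA was found in 25.6% of the 32851 windows of all genes and GTAAACA in 3.65%. The upstream parts of Foxo1 and Inpp5d are shown because these genes moved in opposite directions. Capitals mark the TGGGAA match, and the Foxo1 sequence holds no match to either core.

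Foxo1, chr3:52268087-52268335, plus strand: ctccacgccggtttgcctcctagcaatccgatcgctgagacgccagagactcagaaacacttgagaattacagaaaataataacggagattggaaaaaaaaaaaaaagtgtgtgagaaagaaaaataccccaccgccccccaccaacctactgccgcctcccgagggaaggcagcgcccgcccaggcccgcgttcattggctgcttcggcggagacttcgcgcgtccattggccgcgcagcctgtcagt

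Inpp5d, chr1:87620062-87620311, plus strand: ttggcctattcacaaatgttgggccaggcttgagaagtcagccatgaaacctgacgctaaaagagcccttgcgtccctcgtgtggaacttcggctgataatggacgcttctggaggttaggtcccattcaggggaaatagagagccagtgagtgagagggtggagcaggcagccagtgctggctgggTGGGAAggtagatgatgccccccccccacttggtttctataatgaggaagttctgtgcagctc

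The TGGGAA of Inpp5d began 63 bases before the start. One window of Pik3cd held the core 37 bases after its start, and another held it at 232 and 9 bases before its start. Akt1 held TGGGAA 243 bases and GTAAACA 161 bases before the start in 1 of its 2 windows, and Akt2 had TGGGAA in 2 of 4 windows. Neither core was found in the windows of Foxo3, Pik3ip1 and Pik3r1. All 300 bases of the Pik3ip1 window are exonic in the annotation, so it holds no sequence from before that gene. These matches describe letters and are not measurements of binding.

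**Figure D1:**
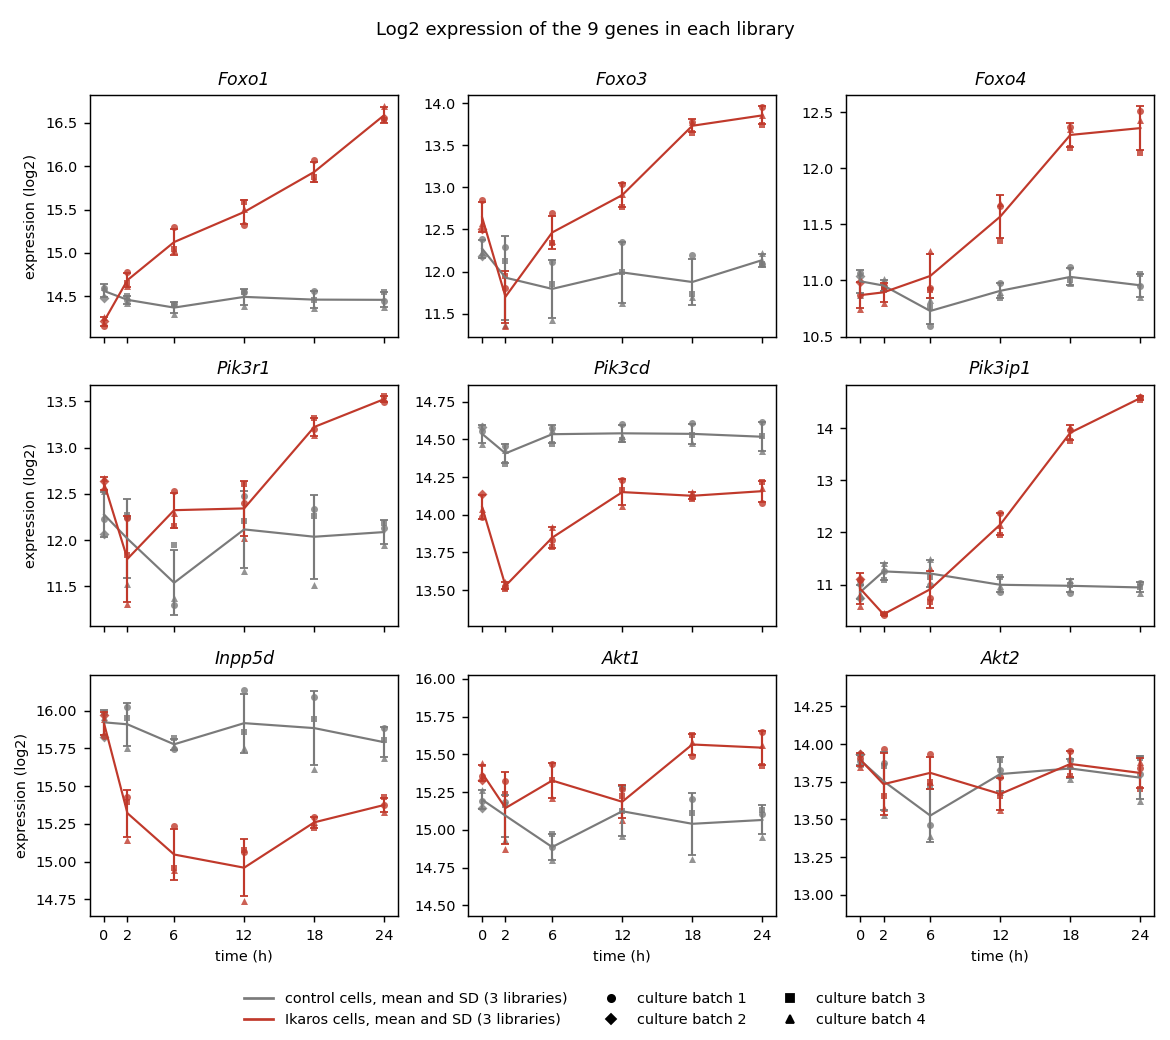
Log2 expression (vertical axis) of each of the 9 genes against time in hours in control cells (grey) and Ikaros cells (red). Each point is 1 library with its shape giving the culture batch, lines join the group means and bars are SDs of 3 libraries, and Foxo1 and Pik3ip1 are seen to climb in Ikaros cells to 16.59 and 14.57 at 24 h while the control lines stay near 14.46 and 10.95.

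Across the 9 genes, those called in Ikaros against control cells (adjusted p under 0.05 in limma's moderated test, Benjamini-Hochberg adjustment over all 12762 genes) went from 2 at 0 h to 8 at 24 h. At 0 h, 0 genes were higher and 2 lower in Ikaros cells, beside 8.33% of all genes called, 4.61% higher and 3.72% lower. At 2 h, 0 were higher and 3 lower, beside 19.1% of all genes, 9.18% higher and 9.88% lower. At an unadjusted p under 0.05 in limma, 0 of the 9 genes were higher and 2 lower at 0 h, and 1 was higher and 3 lower at 2 h. The share of all genes at that unadjusted threshold was not computed. Then 6 were higher and 2 lower at 6 h, when 37.3% of all genes were called, 18.1% higher and 19.2% lower. At 12 h 4 were higher and 2 lower, beside 45.8% of all genes, 23.0% higher and 22.8% lower. At 18 h the counts were 6 and 2, beside 58.2% of all genes, 29.0% higher and 29.2% lower. At 24 h they were again 6 and 2, beside 62.9% of all genes, 31.0% higher and 31.9% lower. The replicates of the lines were apart, without overlap, for 5, 4, 8, 6, 8 and 8 of the 9 genes in the order of time, beside 32.7%, 27.9%, 41.0%, 51.0%, 64.5% and 71.0% of all genes. Most genes of the table were themselves called at 18 and 24 h, and the counts of the 9 genes are to be read against that. The median log2 difference of the 9 genes was 0.00, -0.22, 0.31, 0.23, 1.19 and 1.40 at 0, 2, 6, 12, 18 and 24 h, while the median over all genes was -0.01 at 24 h. In bulk RNA, a lower level in all cells and a smaller share of cells with the transcript cannot be told apart, and this holds for every gene below. Limma fits of only the groups compared gave fewer calls at 6 h, with 3 of the 9 genes, and fewer of all genes were called there as well.

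**Figure D2:**
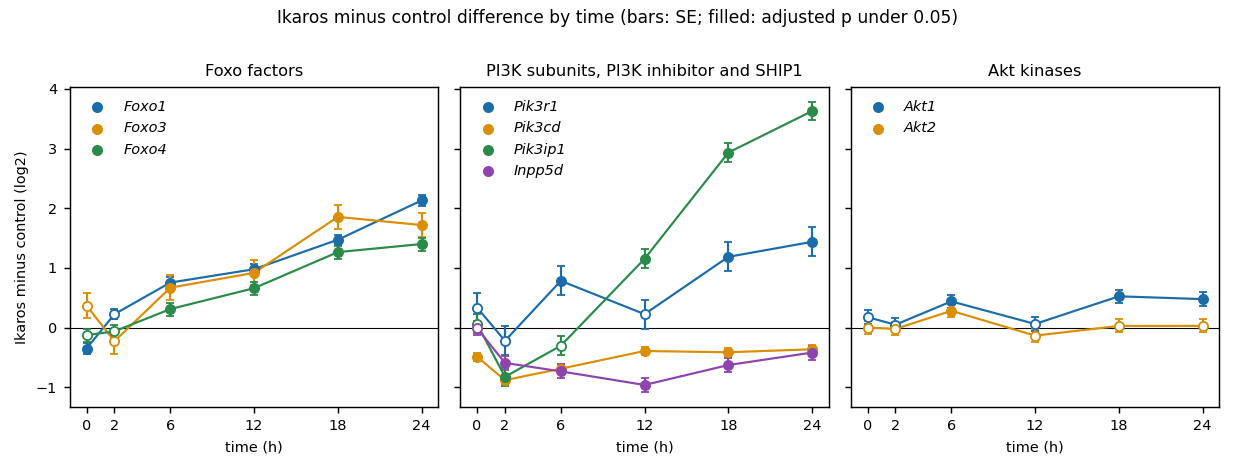
Difference of the mean log2 expression, Ikaros minus control (vertical axis), against time in hours, for the Foxo factors, the genes acting on PIP3 and the Akt kinases. Bars are SEs of the fit and filled points have an adjusted p under 0.05, and Pik3ip1 runs from -0.82 at 2 h to 3.63 at 24 h while Akt2 stays within 0.28 of zero.

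Foxo1 (ENSMUSG00000044167; GRCm38 chr3:52268336-52353221, plus strand) is the Foxo factor best known for directing early B cell development. In Ikaros cells it was above its 0 h level at every later time and ended 4.38-fold above control. The 0 h libraries of batches 1, 2 and 4 read 14.60, 14.47 and 14.61 in control cells and 14.16, 14.22 and 14.26 in Ikaros cells. All 3 Ikaros cultures were thus the lower ones before induction. From 2 h on, values are given for batches 1, 3 and 4. At 2 h Ikaros cells read 14.78, 14.65 and 14.62 against 14.46, 14.50 and 14.42 in control cells. The order of the lines had turned, and the replicates were again apart. Ikaros cells read 15.29, 15.04 and 15.04 at 6 h, 15.32, 15.58 and 15.51 at 12 h, 16.07, 15.88 and 15.86 at 18 h and 16.55, 16.53 and 16.69 at 24 h. Control cells stayed between 14.29 and 14.61 over their 18 libraries, which is a range of 0.318. Every Ikaros library from 2 h on lay above every control library.

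The difference of Foxo1 was -0.35 ± 0.09 (SE, n = 3 per line) at 0 h with adjusted p = 0.00951, and 0.23 at 2 h with adjusted p = 0.068. It was 0.76, 0.98, 1.47 and 2.13 ± 0.09 at 6, 12, 18 and 24 h, with limma adjusted p between 1.38e-07 and 5.60e-17. Set against the difference at 0 h, it had changed by 0.58 ± 0.12 at 2 h (adjusted p = 0.00581) and by 2.48 ± 0.12 at 24 h (adjusted p = 1.92e-14). Within Ikaros cells Foxo1 was 0.47 above its own 0 h level at 2 h and 2.38 above it at 24 h, and in control cells none of the 5 later times was called, with changes between -0.19 and -0.07. The rise of 0.47 lost its call in the fit of only the groups compared (adjusted p = 0.0619). Steps between neighbouring times passed from 2 to 6 h (0.53), from 12 to 18 h (0.49) and from 18 to 24 h (0.66), and the step of 0.22 from 6 to 12 h did not. With a replicate block for the culture batch, separate for 0 h, the 2 h difference passed (adjusted p = 0.0476). The lower level at 0 h was lost in the fit of the 0 h groups alone (adjusted p = 0.0522) and without each replicate in turn (adjusted p up to 0.21), and the change at 2 h was lost without replicate 1 (adjusted p = 0.244) or 2 (adjusted p = 0.226). The study also measured Foxo1 by RT-PCR, so its direction here is not an independent observation. In the annotation it overlaps Gm38034 on the same strand and Gm20402 on the other, and whether counting used strand was not stated.

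Foxo3 (ENSMUSG00000048756; chr10:42181841-42276755, minus strand), a Foxo factor known for quiescence and cell death genes, dipped in Ikaros cells at 2 h and was higher than control from 6 h on. Its 0 h values were 12.39, 12.19 and 12.24 in control cells and 12.84, 12.50 and 12.58 in Ikaros cells. At 2 h they were 12.29, 12.13 and 11.36 in control cells and 11.80, 11.95 and 11.36 in Ikaros cells. The lines were apart at 0 h and overlapped at 2 h. At 24 h control cells read 12.09, 12.09 and 12.23 and Ikaros cells 13.96, 13.74 and 13.86. The difference was 0.37 at 0 h (adjusted p = 0.352), -0.23 at 2 h (adjusted p = 0.509), 0.67 at 6 h (adjusted p = 0.0126), 0.92 at 12 h (adjusted p = 0.000648), 1.86 ± 0.21 at 18 h (adjusted p = 1.82e-08) and 1.72 ± 0.21 at 24 h (adjusted p = 5.31e-08), and the last corresponds to 3.29-fold. Within Ikaros cells, Foxo3 fell by 0.94 from 0 to 2 h (adjusted p = 0.00218) and stood 1.21 above 0 h at 24 h (adjusted p = 1.38e-05). Control cells changed by -0.34 from 0 to 2 h, which was not called (adjusted p = 0.68). The values of Ikaros cells against 0 h, -0.18 at 6 h and 0.27 at 12 h, were not called. Neither was the change of the difference between the lines from 0 h, which was -0.60 at 2 h (adjusted p = 0.394), 0.30 at 6 h (adjusted p = 0.55) and 0.55 at 12 h (adjusted p = 0.167). The gain over the difference at 0 h was 1.35 at 24 h (adjusted p = 0.000415), and over that at 2 h it was 1.94 (adjusted p = 4.55e-06). In the fit of the 6 h groups alone and without replicate 2 the 6 h call was lost (adjusted p = 0.088 and 0.1), and without replicate 2 so was the 2 h fall (adjusted p = 0.0526).

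Foxo4 (ENSMUSG00000042903; chrX:101254528-101260873, plus strand), another member of the family, was higher than control from 6 h on, and no change was called at 2 h. Control cells read 11.07, 11.04 and 10.87 at 0 h and Ikaros cells 10.87, 10.99 and 10.75, so the ranges overlapped. At 12 h the control libraries were at 10.98, 10.85 and 10.90 and the Ikaros libraries at 11.66, 11.35 and 11.69. At 24 h they were at 10.95, 11.06 and 10.86 against 12.51, 12.14 and 12.43. Ikaros replicates lay above all control replicates of the same time from 6 h on. Its difference was -0.12 at 0 h and -0.06 at 2 h, and then 0.31 at 6 h (adjusted p = 0.0253), 0.66 at 12 h (adjusted p = 1.48e-05), 1.27 at 18 h (adjusted p = 1.55e-10) and 1.40 ± 0.11 at 24 h (adjusted p = 1.44e-11), or 2.64-fold. The change from 0 h passed from 12 h on with 0.79, 1.39 and 1.53, and at 6 h it was 0.44 with adjusted p = 0.0533, which passed with a replicate block for the culture batch (adjusted p = 0.0364), with separate blocks for 0 h (adjusted p = 0.032), after the filter on low expression (adjusted p = 0.0465) and after quantile normalization (adjusted p = 0.0397). The 6 h difference was lost in the fit of the 6 h groups alone (adjusted p = 0.213) and without each replicate (adjusted p from 0.0513 to 0.198).

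Pik3ip1 (ENSMUSG00000034614; chr11:3330401-3342971, plus strand), the PI3K inhibitor, had the widest course of the 9 genes, with a fall at 2 h and a rise to 12.4-fold of control at 24 h. At 0 h control cells read 11.01, 10.74 and 10.83 and Ikaros cells 11.09, 11.10 and 10.58, with overlapping ranges. At 2 h control cells read 11.26, 11.10 and 11.41, and Ikaros cells lay below all of them at 10.41, 10.44 and 10.45. At 6 h the ranges met again, with 11.00, 11.14 and 11.50 in control cells and 10.75, 10.67 and 11.32 in Ikaros cells. From 12 h on the order was reversed. Ikaros cells read 12.36, 11.94 and 12.15 at 12 h, 13.95, 13.75 and 14.03 at 18 h and 14.59, 14.53 and 14.60 at 24 h. Control cells stayed between 10.85 and 11.15 at these 3 times. The 3 Ikaros means at 12, 18 and 24 h were apart from each other.

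The Pik3ip1 difference was 0.07 at 0 h (adjusted p = 0.893), -0.82 ± 0.16 at 2 h (adjusted p = 0.00034), -0.30 at 6 h (adjusted p = 0.131), 1.15 at 12 h (adjusted p = 8.15e-07), 2.93 at 18 h (adjusted p = 1.45e-14) and 3.63 ± 0.16 at 24 h (adjusted p = 1.38e-16). Relative to 0 h the difference had changed by -0.89 at 2 h (adjusted p = 0.0201) and by 3.56 at 24 h (adjusted p = 8.55e-13), and from 2 to 24 h by 4.45 ± 0.22 (adjusted p = 2.49e-14). Its steps from 6 to 12 h (1.46) and from 12 to 18 h (1.78) passed the test, and that of 0.69 from 18 to 24 h did not (adjusted p = 0.0886). Within Ikaros cells the 2 h level was 0.49 under 0 h (adjusted p = 0.028) and the 24 h level 3.65 over it. Both 2 h changes against 0 h were lost in fits of only the groups compared (adjusted p = 0.0695 and 0.132) and without replicate 1 or 2 (adjusted p from 0.232 to 0.472), whereas the 2 h difference between the lines was called in all 9 alternatives. The gene overlaps Gm12592 on the other strand.

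Pik3r1 (ENSMUSG00000041417; chr13:101680563-101768217, minus strand) codes for the p85 alpha regulatory subunit, which stabilises and recruits the catalytic subunits. It dipped in Ikaros cells at 2 h and was higher than control at 6, 18 and 24 h. Values at 0 h were 12.23, 12.06 and 12.53 in control cells and 12.54, 12.64 and 12.67 in Ikaros cells. At 6 h they were 11.30, 11.94 and 11.38 against 12.53, 12.15 and 12.29. The gap at 6 h came with the lowest control mean of the course, 11.54 ± 0.35 (SD). At 24 h control cells read 12.13, 12.19 and 11.94 and Ikaros cells 13.49, 13.56 and 13.53. The difference was 0.34 at 0 h (adjusted p = 0.508), -0.22 at 2 h (adjusted p = 0.603), 0.78 ± 0.24 at 6 h (adjusted p = 0.0129), 0.23 at 12 h (adjusted p = 0.47), 1.19 at 18 h (adjusted p = 0.000153) and 1.44 ± 0.24 at 24 h (adjusted p = 1.1e-05). Ikaros cells lost 0.82 from 0 to 2 h (adjusted p = 0.0197) and stood 0.91 above 0 h at 24 h (adjusted p = 0.00214), and the difference had gained 1.10 on that of 0 h at 24 h (adjusted p = 0.00971). Control cells changed by -0.26 from 0 to 2 h (adjusted p = 0.76). The change of the difference between the lines from 0 to 2 h, -0.56, was not called (adjusted p = 0.559). The 0.61 by which Ikaros cells at 18 h exceeded 0 h was lost with the replicate block (adjusted p = 0.0613) and without replicate 1 or 2 (adjusted p = 0.166 and 0.211). The change of the difference at 18 h, 0.85 (adjusted p = 0.0481), was lost without each replicate (adjusted p from 0.114 to 0.144) and was 0.53 without replicate 3. The 6 h difference was lost without replicate 1 (adjusted p = 0.242) and in the fit of the 6 h groups alone (adjusted p = 0.0597). The 2 h dip was lost in the fit of its groups alone and without each replicate (adjusted p from 0.0547 to 0.157), and the 24 h change from 0 h was lost without replicate 1 (adjusted p = 0.0698) or 2 (adjusted p = 0.0629). Gm36638 overlaps Pik3r1 on the same strand.

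Pik3cd (ENSMUSG00000039936; chr4:149649168-149702571, minus strand) codes for p110 delta, the catalytic subunit that prevails in leukocytes. It was lower in Ikaros cells at all 6 times, 0 h included. Control cells read 14.55, 14.58 and 14.47 at 0 h, and Ikaros cells 13.98, 14.14 and 14.04. At 2 h the values were 14.45, 14.33 and 14.43 in control cells and 13.52, 13.51 and 13.55 in Ikaros cells. The replicates of the lines were apart at every time, the spread within each group was small, and all 18 control libraries lay within 0.278. Ikaros cells then read 13.83, 13.79 and 13.92 at 6 h, 14.23, 14.16 and 14.06 at 12 h, 14.12, 14.11 and 14.15 at 18 h and 14.08, 14.21 and 14.18 at 24 h. The level at 2 h was the lowest, and from 12 h on the values overlapped those of 0 h. Differences were -0.49 ± 0.07 at 0 h (adjusted p = 1.32e-05), -0.88 ± 0.07 at 2 h (adjusted p = 3.56e-10), -0.69, -0.39, -0.41 and -0.36 ± 0.07 at 6, 12, 18 and 24 h (adjusted p = 4.9e-05), and each of these 6 calls held in all 9 alternatives. The 24 h difference is 1.28-fold. Against 0 h the difference had changed by -0.39 at 2 h (adjusted p = 0.0191), and at 6, 12, 18 and 24 h the changes of -0.20, 0.10, 0.07 and 0.12 were not called. Between 2 and 24 h it narrowed by 0.52 (adjusted p = 7.75e-05), and the step from 6 to 12 h passed (0.30, adjusted p = 0.0365). The 2 h change against 0 h was lost without each replicate (adjusted p from 0.102 to 0.553) and in the fit of these groups alone (adjusted p = 0.157), and the 0.20 by which Ikaros cells at 6 h lay under 0 h was lost with the replicate block (adjusted p = 0.0707), in the fit of these groups alone (adjusted p = 0.239), without replicate 1 (adjusted p = 0.0966) and without replicate 2, where it was -0.13 (adjusted p = 0.463).

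Inpp5d (ENSMUSG00000026288; chr1:87620312-87720507, plus strand), which codes for SHIP1, fell in Ikaros cells by 2 h, was lowest at 12 h and was less far from control at 24 h. Before induction the lines overlapped, with 15.98, 15.83 and 15.96 in control cells and 15.83, 15.97 and 15.95 in Ikaros cells. Control cells read 16.03, 15.95 and 15.75 at 2 h and Ikaros cells 15.43, 15.40 and 15.14. Later Ikaros values were 15.24, 14.96 and 14.94 at 6 h, 15.06, 15.08 and 14.74 at 12 h, 15.29, 15.22 and 15.26 at 18 h and 15.37, 15.43 and 15.33 at 24 h. Every Ikaros library from 2 h on lay below every control library, whose lowest value was 15.62. The difference was -0.01 at 0 h (adjusted p = 0.985), -0.59 ± 0.12 at 2 h (adjusted p = 0.000654), -0.73 at 6 h (adjusted p = 2.3e-05), -0.96 ± 0.12 at 12 h (adjusted p = 2.05e-07), -0.62 at 18 h (adjusted p = 5.75e-05) and -0.42 ± 0.12 at 24 h (adjusted p = 0.00341). The 12 h difference corresponds to 1.94-fold. The fall within Ikaros cells at 2 h, a change of -0.59, was lost in the fit of these groups alone (adjusted p = 0.0512) and without replicate 2 (adjusted p = 0.0768). The step from 12 to 18 h was 0.33 (adjusted p = 0.204) and that from 18 to 24 h was 0.21 (adjusted p = 0.574), so the return seen in the means was not called between neighbouring times. The change from 0 h was -0.58 at 2 h (adjusted p = 0.0546) and passed with the replicate block (adjusted p = 0.0119) and with separate blocks for 0 h (adjusted p = 0.00519), after the filter on low expression (adjusted p = 0.0426) and with a trended and robust prior (adjusted p = 0.0464), and it was called at 6 h (-0.72), 12 h (-0.95), 18 h (-0.62) and 24 h (-0.41). Without replicate 2 the differences at 2 and 24 h were lost (adjusted p = 0.0746 and 0.0682), as were the changes from 0 h at 6, 18 and 24 h (adjusted p = 0.248, 0.202 and 0.34). The 2 h difference was also lost in the fit of the 2 h groups alone (adjusted p = 0.0741), and the 24 h change without replicate 1 (adjusted p = 0.108).

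Akt1 (ENSMUSG00000001729; chr12:112653821-112674884, minus strand), the widely expressed Akt kinase, was modestly higher in Ikaros cells at 6, 18 and 24 h. At 24 h control cells read 15.11, 15.13 and 14.96 and Ikaros cells 15.65, 15.42 and 15.56, with no overlap. The difference was 0.18 at 0 h (adjusted p = 0.437), 0.05 at 2 h, 0.44 ± 0.11 at 6 h (adjusted p = 0.00319), 0.06 at 12 h (adjusted p = 0.682), 0.53 at 18 h (adjusted p = 0.000269) and 0.48 ± 0.11 at 24 h (adjusted p = 0.000629). Within Ikaros cells no time was called against 0 h, with changes from -0.23 to 0.19. The 2 h change of -0.23 passed with the replicate block (-0.28, adjusted p = 0.0413). The change of the difference from 0 h was 0.35 at 18 h (adjusted p = 0.0805) and 0.30 at 24 h (adjusted p = 0.123). With separate replicate blocks for 0 h both passed (adjusted p = 0.0171 and 0.0339), and with a single set of blocks the 18 h change did (adjusted p = 0.0331). From 2 to 24 h it was 0.43 (adjusted p = 0.0295), which was lost in the fit of these groups alone (adjusted p = 0.0959) and without each replicate (adjusted p from 0.0559 to 0.129), and the 6 h difference was lost without replicate 1 (adjusted p = 0.0837) or 2 (adjusted p = 0.0687) and in the fit of the 6 h groups alone (adjusted p = 0.0704).

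Akt2 (ENSMUSG00000004056; chr7:27591552-27640826, plus strand), the isoform known for insulin responses, had the least movement of the 9 genes. Its Ikaros libraries lay between 13.57 and 13.97 and its control libraries between 13.39 and 13.93. At 24 h control cells read 13.80, 13.91 and 13.62 and Ikaros cells 13.84, 13.70 and 13.88, and the lines overlapped. The difference of 0.03 ± 0.11 at 24 h was not called (adjusted p = 0.816), and those at 0, 2, 12 and 18 h lay between -0.13 and 0.03. At 6 h it was 0.28 ± 0.11 (adjusted p = 0.041), and there the control libraries read 13.46, 13.72 and 13.39, their lowest mean, while Ikaros libraries read 13.93, 13.75 and 13.75. The 6 h call was lost in the fit of the 6 h groups alone (adjusted p = 0.232) and without each replicate (adjusted p from 0.0694 to 0.392).

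A moderated F test in limma over the 5 changes from 0 h was called for 8 of the 9 genes, beside 59.8% of all genes. Its adjusted p ran from 6.73e-15 for Pik3ip1 and 8.85e-14 for Foxo1 to 0.00129 for Pik3r1 and 0.0227 for Akt1, and for Akt2 it was 0.246. The count of genes whose difference had changed from 0 h was 3, 2, 4, 6 and 6 at 2, 6, 12, 18 and 24 h, beside 3.10%, 15.9%, 29.7%, 43.0% and 48.4% of all genes. Between 2 and 24 h it was 7 of 9, beside 47.3% of all genes, with Inpp5d and Akt2 the exceptions. Between neighbouring times the change was called for 1 gene from 2 to 6 h (5.96% of all genes), 2 genes from 6 to 12 h (16.0%), 4 genes from 12 to 18 h (11.7%) and 1 gene from 18 to 24 h (2.63%). The 4 genes from 12 to 18 h were Foxo1, Foxo3, Foxo4 and Pik3ip1.

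In control cells, 6 h was the one time at which any of the 9 genes was called against 0 h. They had 0 of the 9 genes called at 2, 12, 18 and 24 h, where 0.0470%, 0.0549%, 0.478% and 0.470% of all genes were called. At an unadjusted p under 0.05 in limma, 1 of the 9 genes passed at 2 h and 0 at 12, 18 and 24 h. At 6 h an unadjusted p under 0.05 was reached by 1 gene that was higher and 6 that were lower, among them Pik3r1 (-0.74, adjusted p = 0.0652), Foxo3 (-0.48, adjusted p = 0.136) and Akt1 (-0.31, adjusted p = 0.0844). Of these, 1 gene was called, Akt2, which fell by 0.37 (adjusted p = 0.0465), beside 5.10% of all genes called. The share of all genes at an unadjusted p under 0.05 was not computed, so the unadjusted counts have no background to be read against. The Akt2 call was lost in the fit of these groups alone (adjusted p = 0.146), after quantile normalization (adjusted p = 0.0512) and without each replicate (adjusted p from 0.13 to 0.29). With a replicate block for the culture batch, 4 genes were called at 6 h, since Foxo3 (adjusted p = 0.0369), Pik3r1 (adjusted p = 0.0135) and Akt1 (adjusted p = 0.0188) were also lower. The block raised the number of all genes called there from 651 to 2585. For Pik3r1, Akt1 and Akt2 the difference between the lines at 6 h was larger than at 2 and 12 h, and the part of the lower control level in that difference was not tested. In Ikaros cells against their own 0 h, the number called was 6, 3, 4, 6 and 6 over the same 5 times, beside 19.2%, 32.8%, 46.1%, 54.6% and 60.6% of all genes.

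**Figure D3:**
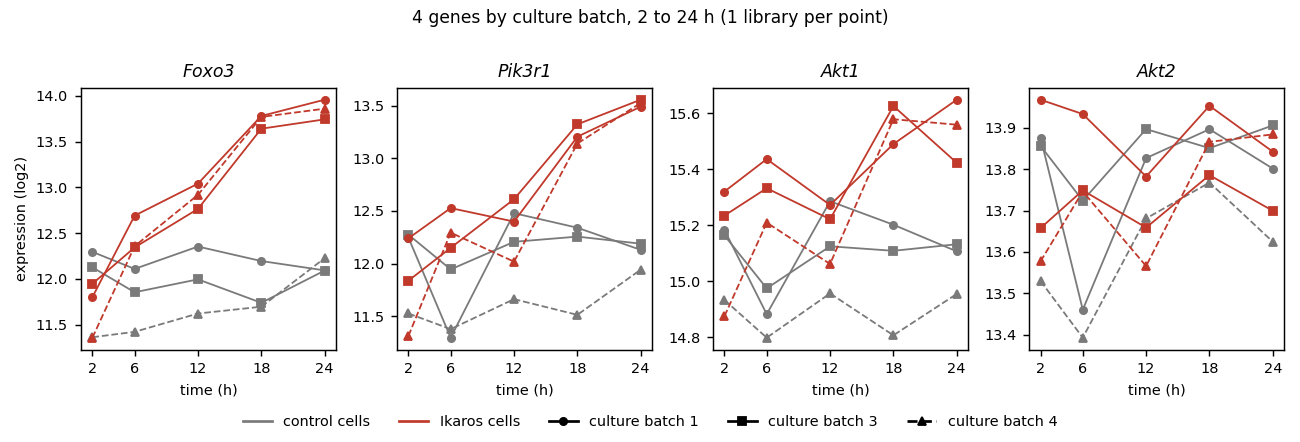
Log2 expression (vertical axis) of Foxo3, Pik3r1, Akt1 and Akt2 against time in hours, with 1 point per library from 2 to 24 h, control cells in grey and Ikaros cells in red, and the culture batch shown by symbol and line (dashed for batch 4). The control libraries of batch 4 are lowest at 4 or 5 of the 5 times in each gene.

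Culture batch 4 stood below batches 1 and 3 for several of these genes in control cells. At the 5 later times its control library was the lowest of 3 in 5 of 5 for Foxo1, Akt1 and Akt2 and in 4 of 5 for Foxo3, Inpp5d and Pik3r1. The median shortfall against the mean of batches 1 and 3 was -0.68 for Pik3r1, -0.55 for Foxo3, -0.24 for Akt1, -0.24 for Inpp5d, -0.20 for Akt2 and -0.12 for Foxo1. Foxo4, Pik3cd and Pik3ip1 differed, with batch 4 lowest in 2, 2 and 1 of 5 and medians of -0.01, -0.03 and 0.17. The share of all genes with a low batch 4 was not computed. In Ikaros cells the medians were -0.12 for Pik3r1, 0.01 for Foxo3, -0.18 for Akt1, -0.16 for Inpp5d, -0.09 for Akt2 and -0.09 for Foxo1. They were 0.11 for Foxo4, 0.04 for Pik3cd and 0.05 for Pik3ip1. Taken within batches 1, 3 and 4, the 24 h difference was 2.10, 1.98 and 2.31 for Foxo1 and 1.87, 1.65 and 1.64 for Foxo3. For Foxo4 these were 1.55, 1.08 and 1.57, for Pik3ip1 3.56, 3.57 and 3.76, and for Pik3r1 1.36, 1.37 and 1.58. They were -0.53, -0.30 and -0.24 for Pik3cd, -0.51, -0.38 and -0.36 for Inpp5d and 0.54, 0.29 and 0.60 for Akt1. For these 8 genes the direction at 24 h was the same in all 3 batches. Akt2 had 0.04, -0.21 and 0.26, and its direction differed between batches. At 6 h the Pik3r1 difference was 1.23, 0.21 and 0.92, and at 2 h that of Pik3ip1 was -0.85, -0.66 and -0.96.

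When the 12 groups were ordered by mean level, the first 5 places of Foxo1 were taken by Ikaros cells at 24, 18, 12, 6 and 2 h, each apart from the next, and the last by Ikaros cells at 0 h. The 6 control groups stood between them and overlapped one another in order. Pik3ip1 had Ikaros cells at 24, 18 and 12 h at the top, each apart from the next, and Ikaros cells at 2 h at the bottom, apart from the rest. For Foxo3 and Foxo4 the top 2 places, Ikaros cells at 24 and 18 h, overlapped each other and were apart from the third, Ikaros cells at 12 h. Pik3r1 had Ikaros cells at 24 and at 18 h first and second, apart from each other and from those below. For Inpp5d the 6 control groups and Ikaros cells at 0 h filled the first 7 places without a gap between neighbours, followed by a gap to the 5 later Ikaros groups. Pik3cd had all 6 control groups above all 6 Ikaros groups, and Ikaros cells at 6 and at 2 h held the last places, apart from each other. In Akt1 and Akt2 each group overlapped the next in order.

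Across the 36 libraries, the genes with the highest Pearson correlation to Foxo1 were Tpp1 (0.978), a lysosomal peptidase, Tnfrsf26 (0.976), a TNF receptor family member, Ero1lb (0.972), an oxidase of the endoplasmic reticulum, Ap5z1 (0.972), an adaptor complex subunit, and Cd79b (0.971), a signalling chain of the B cell receptor. The libraries share the time course and the 2 lines, so these are descriptions of likeness. The closest gene was Tax1bp3 for Foxo4 (0.973), Epsti1 for Pik3ip1 (0.976), Trim56 for Pik3r1 (0.981), Fam43a for Inpp5d (0.969), Ddx6 for Akt1 (0.954), Fam111a for Pik3cd (0.894) and Myh9 for Akt2 (0.837). For Foxo3 it was a row labelled Ighv1-15 (0.971), an immunoglobulin variable gene of a family with near-identical copies. At 24 h Epsti1 was 5.44 ± 0.20 higher in Ikaros cells (adjusted p = 7.21e-18) and Fam43a 1.64 lower, with a log2 difference of -1.64 ± 0.21 (adjusted p = 1.18e-07). Among the 9 genes, Foxo1 correlated with Foxo4 at 0.927, Pik3ip1 at 0.900, Foxo3 at 0.855, Pik3r1 at 0.769 and Akt1 at 0.679, with Akt2 at 0.111, with Pik3cd at -0.304 and with Inpp5d at -0.632.

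**Figure D4:**
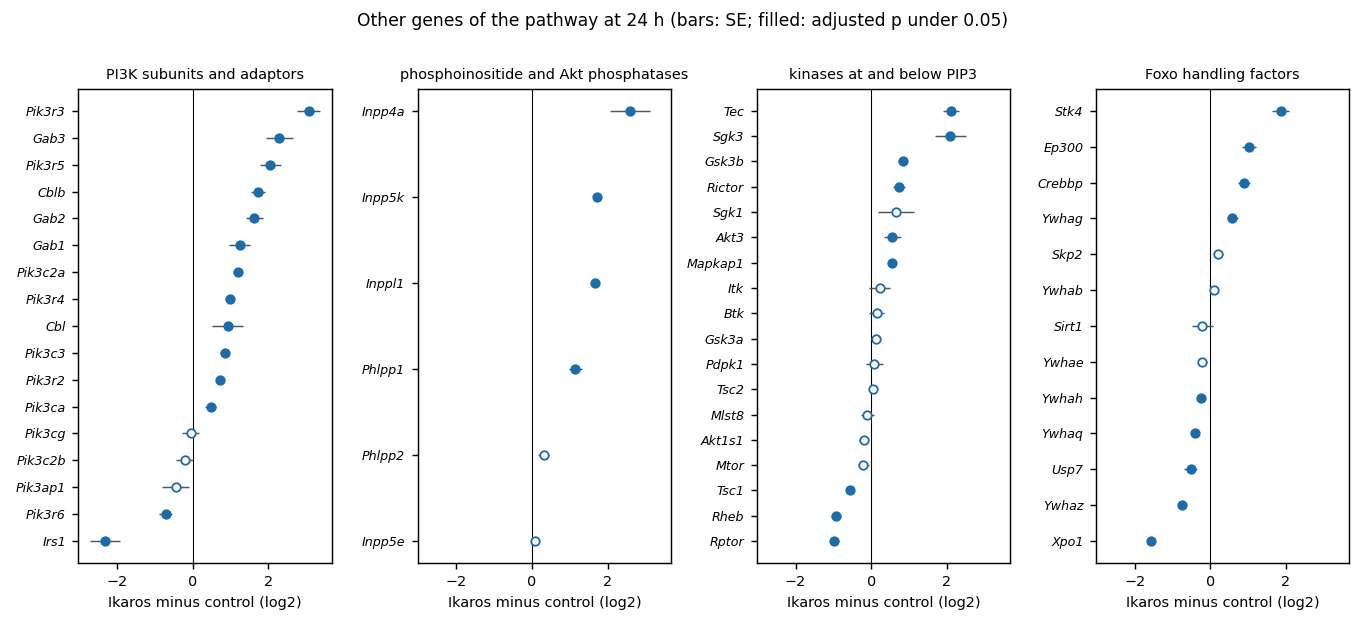
Difference of the mean log2 expression at 24 h, Ikaros minus control (horizontal axis), for the genes of 4 pathway lists that are not among the 9 genes. Bars are SEs and filled points have an adjusted p under 0.05, with Pik3r3 at 3.06 and Irs1 at -2.31 at the ends of the first list and Inppl1 at 1.66 in the second.

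The rest of the PI3K machinery was read from lists of pathway genes. Of 18 PI3K subunits and adaptors, 17 were in the table, and at 24 h 12 were higher, 2 lower and 3 not called in Ikaros cells, where 31.0% of all genes were higher and 31.9% lower. Their median difference was 0.92. The largest positive differences were those of the regulatory subunits Pik3r3 (3.06 ± 0.31, adjusted p = 1.93e-09) and Pik3r5 (2.05 ± 0.27, adjusted p = 2.9e-07), the docking protein Gab3 (2.29 ± 0.36, adjusted p = 4.41e-06) and the ubiquitin ligase Cblb (1.73 ± 0.20, adjusted p = 2.11e-08). Cblb is known as a brake on receptor signalling, so the members that were higher do not all promote PI3K activity. Pik3r5 was already 1.28 higher at 0 h (adjusted p = 0.00227), and its change by 24 h was not called (adjusted p = 0.105). The 2 lower genes were Irs1, an adaptor of the insulin and IL-4 receptors, and Pik3r6, a subunit of the p110 gamma complex. Irs1 differed by -0.40 at 0 h (adjusted p = 0.69), -3.75 at 2 h (adjusted p = 1.05e-07), -4.53 at 12 h (adjusted p = 7.12e-10) and -2.31 ± 0.40 at 24 h (adjusted p = 1.65e-05). Pik3r6 was higher in Ikaros cells at 0 h by 0.80 (adjusted p = 0.00284) and at 6 h by 2.22 (adjusted p = 1.75e-10), and lower at 24 h, with -0.72 (adjusted p = 0.000815).

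Of 7 phosphatases acting on phosphoinositides or on Akt, 6 were in the table. At 24 h, 4 of them were higher, 0 lower and 2 not called. Of all genes, 62.9% were called then, 31.0% higher and 31.9% lower, so the share of phosphatases called was near that of all genes. Inppl1, which codes for SHIP2, was 1.66 ± 0.08 higher (adjusted p = 2.21e-15), while its relative Inpp5d was lower. The difference of Inppl1 was -0.02, 0.44, 0.67 and 1.53 at 0, 6, 12 and 18 h. Inpp5k, an inositol phosphatase, was 1.71 ± 0.10 higher (adjusted p = 1.25e-13). Phlpp1, an Akt phosphatase, was 1.14 ± 0.17 higher (adjusted p = 2.32e-06) and had been 0.97 higher at 0 h (adjusted p = 0.000345). Inpp4a differed by 2.59 ± 0.53 (adjusted p = 0.000135), with a control SD of 1.75.

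Of 18 kinases and regulators at and below PIP3, all in the table, 6 were higher, 3 lower and 9 not called at 24 h, with a median difference of 0.14. The share higher was near the 31.0% of all genes, and the share called lay under the 62.9% of all genes. Tec, a kinase recruited by PIP3, was 2.10 ± 0.21 higher (adjusted p = 1.66e-09), and Sgk3, an Akt-related kinase, was 2.09 ± 0.40 higher (adjusted p = 6.31e-05). Sgk3 already differed at 0 h, by 2.02 (adjusted p = 0.00118). Gsk3b was 0.83 ± 0.11 higher and Rictor, a subunit of mTORC2, 0.75 ± 0.16 higher (adjusted p = 3.09e-07 and 0.000225). The genes that were lower were Rptor (-0.98 ± 0.11, adjusted p = 3e-08), Rheb (-0.93 ± 0.14, adjusted p = 2.14e-06) and Tsc1 (-0.57 ± 0.08, adjusted p = 3.26e-07), of which Rptor and Rheb promote mTORC1 and Tsc1 restrains it. Tsc1 was already lower at 0 h, by -1.22 (adjusted p = 2.19e-11), and the gap had narrowed by 0.65 at 24 h (adjusted p = 1.87e-05).

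Of 14 genes whose products handle Foxo proteins, 13 were in the table, and 4 were higher, 5 lower and 4 not called at 24 h, with a median of -0.21. These shares are near those of all genes, 31.0% higher and 31.9% lower. Xpo1, the export receptor that carries Foxo proteins out of the nucleus, was lower by -1.57 ± 0.10 at 24 h (adjusted p = 5.58e-13), with differences of 0.11, -0.35, -0.75 and -1.03 at 0, 6, 12 and 18 h. Stk4, a kinase that phosphorylates Foxo proteins, was 1.85 ± 0.23 higher (adjusted p = 8.49e-08). The acetyltransferases Ep300 (1.01 ± 0.19, adjusted p = 3.28e-05) and Crebbp (0.89 ± 0.15, adjusted p = 1.31e-05) were also higher. Among the 14-3-3 proteins, which hold phosphorylated Foxo in the cytoplasm, Ywhag was higher (0.58 ± 0.14, adjusted p = 0.00101) and Ywhaz (-0.75 ± 0.10, adjusted p = 2.35e-07) and Ywhaq (-0.40 ± 0.08, adjusted p = 0.000106) were lower. Usp7, a deubiquitinase, was lower by -0.52 ± 0.17 (adjusted p = 0.0105), and this call was lost without replicate 1 (adjusted p = 0.099) or 2 (adjusted p = 0.217).

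**Figure D5:**
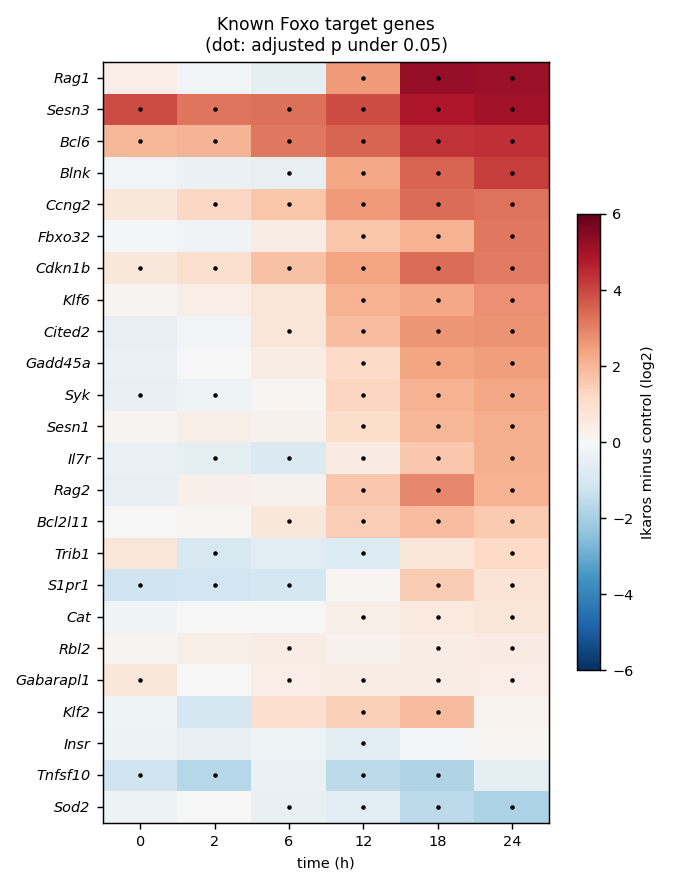
Difference of the mean log2 expression, Ikaros minus control (colour), of 24 known Foxo target genes (rows) at the 6 times in hours (columns), with a dot where the adjusted p is under 0.05. Rag1 moves from 0.39 at 0 h to 5.19 at 24 h, whereas Sesn3 is already at 3.91 at 0 h.

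Genes known as Foxo targets were the last list. Of 27 listed, 24 were in the table, and the numbers higher and lower in Ikaros cells were 4 and 3 at 0 h, 4 and 5 at 2 h, 8 and 4 at 6 h, 18 and 4 at 12 h, 20 and 2 at 18 h and 20 and 1 at 24 h. Of all genes, 4.61% were higher and 3.72% lower at 0 h, 9.18% and 9.88% at 2 h, and 18.1% and 19.2% at 6 h. These shares were 23.0% and 22.8% at 12 h, 29.0% and 29.2% at 18 h, and 31.0% and 31.9% at 24 h. The counts of the targets are to be read against that rise. The median difference of the 24 targets was -0.12, -0.03, 0.33, 1.37, 2.03 and 2.18 at 0, 2, 6, 12, 18 and 24 h. Many of these genes are B cell differentiation genes with other known regulators, and the list does not separate Foxo action from those.

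Rag1, one of the pair of proteins that cut DNA in V(D)J recombination, had the largest 24 h difference of the list, 5.19 ± 0.29 (adjusted p = 2.52e-14). It stood at 0.39, -0.16 and -0.55 at 0, 2 and 6 h, none of them called, and at 2.54 at 12 h and 5.28 at 18 h. Blnk, the adaptor of the pre-B cell receptor, differed by -0.15 at 0 h and -0.48 at 6 h (adjusted p = 0.0462) and by 4.14 ± 0.19 at 24 h (adjusted p = 4.19e-16). Bcl6, a repressor known from pre-B and germinal centre cells, was higher at 0 h already by 2.00 (adjusted p = 0.000582) and at 24 h by 4.36 ± 0.38 (adjusted p = 1.17e-10), a change of 2.36 (adjusted p = 0.000616). Sesn3, a restrainer of mTORC1, was 3.91 ± 0.38 higher at 0 h (adjusted p = 4.17e-08) and 5.05 ± 0.38 at 24 h (adjusted p = 9.64e-12), and the change of 1.14 between them was not called (adjusted p = 0.0855). Counted on the change from 0 h, 16 of the 24 targets gained and 1 lost at 24 h, where the change was called for 48.4% of all genes. Sod2, a mitochondrial superoxide dismutase, was the one that fell, with -0.29, -1.58 and -1.89 ± 0.16 at 0, 18 and 24 h (adjusted p = 6.18e-11). The genes called at 0 h were singled out after their values were seen. Beside Sesn3 and Bcl6, Gabarapl1 (0.67) and Cdkn1b (0.66) were higher and S1pr1 (-1.17), Tnfsf10 (-1.17) and Syk (-0.42) were lower.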

How the data were processed

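Libraries of polyadenylated RNA were prepared by a stranded dUTP protocol and read as paired ends. Per the labels and the study's methods, the authors aligned reads to mm10 with TopHat2, kept unique best alignments and counted genes with HTSeq in an intersection mode, with versions and the strand setting of the counting not given in the sources used here. The deposited values are log2 expression after cqn correction for GC content and length and non-parametric ComBat correction for library preparation. They are not counts, and depth was unknown, so neither counting intervals nor floors could be given. The table held no column of other samples.

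All 12762 genes were fitted in 1 model with 12 group means over 36 libraries with limma 3.58.1 in R 4.3.3, without a further filter or pseudocount. At every time Ikaros cells were compared with control cells, and the resulting difference was compared with that at 0 h, between 2 and 24 h and between neighbouring times, and each line with its own 0 h. P-values were Benjamini-Hochberg adjusted over all genes of a contrast and called under 0.05. The ComBat step had used up degrees of freedom that the fit does not count, so p-values may be too small. The members and pathway lists were chosen with earlier results of these data known. Genes outside the 9 were named where they were among the called genes with the 4 largest rises or falls of a pathway list at 24 h, or were most alike by Pearson correlation over the 36 libraries (5 genes for Foxo1, 1 for each other member). The target genes called at 0 h were named after their values were seen. Some genes of the pathway and marker lists are not reported here, and the counts leave them out.

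The culture batch in the labels pairs control and Ikaros cultures. The deviations of the 18 pairs from their group means correlated at -0.0620 to 0.507, with a median of 0.127. The alternatives were the batch as a replicate block, the same with separate blocks for 0 h, a filter at the 25th percentile of mean expression that left 9571 genes, quantile normalization, a trended and robust variance prior, fits of only the groups compared, and each replicate left out. On simulated data for the 24 h comparison with 12762 genes, 73 of 100 genes changed by 1 and 90 of 100 changed by 2 on the log2 scale were called. Of the unchanged genes, 4 were called. The simulation used independent noise and changed few genes, whereas 62.9% of all genes were called at 24 h in the data. Its rates therefore need not hold for the data. Scripts ran in Python 3.11.15 with pandas 2.3.3. Gene positions are from GENCODE annotation of GRCm38 and upstream sequences from RefSeq.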

Additional observations from a re-analysis of the deposited data

Results flagged for a closer look

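For 8 of the 9 genes a limma test of the change of the difference passed, either from 0 h to any later time or from 2 to 24 h (Benjamini-Hochberg adjustment over all genes). The share of all genes that met this rule was not computed. Taken singly, these tests called from 3.10% to 48.4% of all genes, so the share that met the rule was 48.4% or higher. Against 0 h, the difference of Foxo1 had changed by 0.58, 1.10, 1.33, 1.82 and 2.48 at 2, 6, 12, 18 and 24 h on the log2 scale, and from 2 to 24 h it changed by 1.90. That of Foxo3 had changed by 1.48 at 18 h and 1.35 at 24 h, and by 1.94 from 2 to 24 h. Foxo4 had changes of 0.79, 1.39 and 1.53 at 12, 18 and 24 h, and of 1.46 from 2 to 24 h.

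Pik3ip1 changed in both directions, by -0.89 at 2 h and by 1.09, 2.87 and 3.56 at 12, 18 and 24 h against 0 h, and by 4.45 from 2 to 24 h. The difference of Pik3r1 had changed by 0.85 at 18 h and 1.10 at 24 h, and by 1.66 from 2 to 24 h. Its 18 h value was lost without each replicate in turn (limma adjusted p from 0.114 to 0.144) and was 0.53 without replicate 3. Pik3cd changed by -0.39 at 2 h and by 0.52 from 2 to 24 h. Inpp5d changed by -0.72, -0.95, -0.62 and -0.41 at 6, 12, 18 and 24 h. Akt1 changed by 0.43 from 2 to 24 h only. This call was lost in the limma fit of these groups alone (adjusted p = 0.0959) and without each replicate (adjusted p from 0.0559 to 0.129). The 0 h libraries were collected separately, so a change from 0 h and a difference between collections cannot be told apart in either line alone.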

How the results depend on the processing

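Of 2081 comparisons of a value with an alternative, 1950 kept their direction and side of the threshold, 69 lost and 17 gained a call, and 45 turned direction without being called on either side. Where a changed call bears on a statement about a gene, its value stands beside that gene in the report, and the cause was not tested. The replicate block changed no call of the 9 genes other than those given there. Among the 8 genes called at 24 h, 7 kept that call in all 9 alternatives, and Inpp5d lost it without replicate 2. The block with separate blocks for 0 h gives no value for a line against its own 0 h.

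Fits of only the groups compared called fewer of the 9 genes, with 1 in place of 2 for the difference at 0 h, 3 in place of 8 at 6 h, 1 in place of 3 for the change by 2 h, 2 in place of 6 for Ikaros cells at 2 h and 0 in place of 1 for control cells at 6 h. Leaving out 1 replicate gave 1 at 0 h each time, 4 to 6 at 6 h, 0 to 2 for the change by 2 h, 2 to 5 for Ikaros cells at 2 h, 1 to 2 for the change by 6 h and 0 for control cells at 6 h. In control cells at 6 h the replicate block called 4 and quantile normalization 0. No other count of the 9 genes moved by over 1.5 times with the block. Counts of all genes are given below for some of these settings only. Elsewhere the counts of the 9 genes have no background here, and a loss particular to them cannot be told from a general one.

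Over all genes, the number called between the lines at 0 h was 1063, with 701 after the filter and 318 to 1204 without 1 replicate. At 2 h it was 2432, with 860 from only the groups compared, and at 6 h 4759, with 2150. In control cells at 6 h it was 651, with 2585 under the replicate block and 12 from only the groups compared.

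No value that turned exceeded 0.1991 in size. With the replicate block they were 0.0335 for Foxo4 in control cells at 2 h, 0.0357 for Foxo4 in control cells at 24 h, 0.0386 for Pik3ip1 in Ikaros cells at 6 h, 0.0416 for Pik3cd in control cells at 6 h, 0.0440 for Pik3cd in control cells at 18 h and 0.0248 for Pik3cd in control cells at 24 h. Quantile normalization gave 0.0062 for Pik3cd in control cells at 6 h and 0.0030 for Pik3cd in control cells at 18 h. Without 1 replicate, the lowest and highest values were as follows, with cells of a line taken against their 0 h. Foxo1 spanned -0.1387 to 0.0124 for control cells at 12 h. Foxo4 spanned -0.1012 to 0.0183 for the 2 h difference between the lines, -0.0102 to 0.1416 for the change of the difference by 2 h, -0.1270 to 0.0097 for control cells at 2 h, -0.0005 to 0.0613 for Ikaros cells at 2 h, -0.0013 to 0.2901 for Ikaros cells at 6 h and -0.0647 to 0.0017 for control cells at 24 h. Inpp5d spanned -0.0830 to 0.0652 for the 0 h difference between the lines, -0.0810 to 0.0842 for control cells at 2 h, -0.0846 to 0.0936 for control cells at 12 h and -0.1162 to 0.1143 for control cells at 18 h. Pik3ip1 spanned -0.0808 to 0.2218 for the 0 h difference between the lines and -0.3835 to 0.1991 for Ikaros cells at 6 h. Pik3r1 spanned -0.4971 to 0.1130 for control cells at 2 h, -0.2769 to 0.0262 for the change of the difference by 12 h, -0.3651 to 0.1954 for control cells at 12 h, -0.4564 to 0.1511 for control cells at 18 h and -0.3470 to 0.0123 for control cells at 24 h. Pik3cd spanned -0.0501 to 0.0556 for control cells at 6 h, -0.0207 to 0.0501 for control cells at 12 h, -0.0257 to 0.0291 for control cells at 18 h and -0.0582 to 0.0041 for control cells at 24 h. Akt1 spanned -0.1700 to 0.0059 for control cells at 2 h, -0.1148 to 0.0402 for Ikaros cells at 6 h and -0.1615 to 0.0380 for control cells at 12 h. Akt2 spanned -0.0063 to 0.0129 for the 0 h difference between the lines, -0.0755 to 0.0695 for the 2 h difference between the lines, -0.0044 to 0.0774 for the 18 h difference between the lines, -0.0826 to 0.1500 for the 24 h difference between the lines, -0.0692 to 0.0659 for the change of the difference by 2 h, -0.0173 to 0.0738 for the change of the difference by 18 h, -0.0664 to 0.0306 for Ikaros cells at 18 h, -0.0954 to 0.1464 for the change of the difference by 24 h and -0.0290 to 0.1021 for the change of the difference after 2 h.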
